A study of Hordeum vulgare with 12 samples.

Results

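The effect of a cytokinin-degrading transgene on the barley stem base was examined at 10 days after germination (10DAG), the age at which crown roots emerge from it. The comparison was between 6 of the 12 libraries of the series. Of these, 3 came from seedlings of an AtCKX1-overexpressing line and 3 from wild-type (WT) seedlings of the spring cultivar Golden Promise. AtCKX1 is an Arabidopsis thaliana gene for a cytokinin oxidase/dehydrogenase, and the submitters describe the overexpressing plants as holding less cytokinin than the WT. Seedlings of both genotypes germinated in a long photoperiod and were then grown in hydroponics, and the stem base (crown), the short segment where the stem joins the roots, was cut out for RNA. The other 6 libraries, 3 of each genotype, were made from stem bases at 1 day after germination (1DAG), before crown roots emerge. They were used to ask whether a genotype difference at 10DAG was already present. They also entered the same fit, and so the filter, the scaling and the estimate of spread behind the p-values at 10DAG. No promoter, insertion site or number of independent events was given for the transgenic line in the sources used here, so the effect of the enzyme cannot be told apart from any other difference between that line and the WT plants. Each WT library was described as a pool of seedlings from 1 of 3 independent biological replicates. The published methods do not describe the transgenic plants.

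Cytokinins are plant hormones derived from adenine that promote cell division in the shoot and are antagonists of auxin in root initiation. Their level is set by isopentenyltransferases (IPT), which make them, by LOG-type phosphoribohydrolases, which release the active base, and by cytokinin oxidases/dehydrogenases (CKX), which cleave the side chain irreversibly. The signal passes from histidine kinase receptors to response regulators: B-type regulators are transcription factors that activate target genes, and A-type regulators are their rapidly induced targets and dampen the response. In cereals, crown roots arise from the stem base, and lowering cytokinin by CKX overexpression is known to alter root growth in several species.

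The deposited values were counts of reads per gene. Between 36100002 and 51997655 reads were assigned to genes in each library, and a further 22.1% to 24.4% fell outside annotated genes. Levels are given below as CPM, the reads of a gene scaled to a common library total with TMM factors. CPM are not corrected for gene length, so they compare libraries and not genes. Because the RNA came from a whole tissue segment, a lower level may reflect fewer cells of a type or less RNA per cell, and these cannot be told apart. In a principal component analysis the ages separated on the first component (64.1% of the variance), and all 6 AtCKX1 libraries lay on 1 side of all 6 WT libraries on the second. WT replicate 2 at 10DAG and WT replicate 1 at 1DAG lay farther out on the second component than the other WT libraries of their age, so counts of calls are also given without each and without both.

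The transgene itself was counted under its Arabidopsis identifier, AT2G41510, and checked the labels. It had 0 reads in all 6 WT libraries. At 10DAG the AtCKX1 libraries held 42, 7 and 12 reads of it, or 0.942, 0.140 and 0.316 CPM. At 1DAG they held 16, 11 and 18 reads. Every AtCKX1 library therefore carried reads of the transgene, although few. Against a floor of 3 reads over the WT group, the transgene was at least 19.8-fold higher at 10DAG and at least 14.98-fold higher at 1DAG. Its adjusted p at 10DAG was 0.0536 (edgeR quasi-likelihood test with Benjamini-Hochberg adjustment) and 0.0012 with DESeq2, so the gene that defines the comparison narrowly missed the threshold used for all others.

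Of 20212 genes tested at 10DAG, 250 (1.24%) differed between AtCKX1 and WT by at least 2-fold with an adjusted p of 0.05 or less (edgeR quasi-likelihood test). Genes that met both limits are called higher or lower below. There were 132 higher in AtCKX1 (0.653% of the genes tested) and 118 lower (0.584%). The directions were of unlike size: the median log2 fold change was 1.54 among the higher genes and -2.60 among the lower ones. Only 3 genes were higher by more than 16-fold, whereas 37 were lower by more than 16-fold. In all 250 genes the 3 AtCKX1 libraries lay on 1 side of the 3 WT libraries, which was also true of 23.7% of all genes tested. Without WT replicate 2, 128 genes were called (70 higher and 58 lower), and 121 of the 250 calls remained. The counts also fell by more than 1.5 times without WT replicate 1 (73 and 69) and without AtCKX1 replicate 1 (78 and 45), and for lower genes without AtCKX1 replicate 2 (66) and replicate 3 (69). Without WT replicate 1 at 1DAG, which enters only through the shared filter, scaling and estimate of spread, 506 genes were called and all 250 remained. Without both of these WT libraries the counts were 168 higher and 111 lower.

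**Figure D1:**
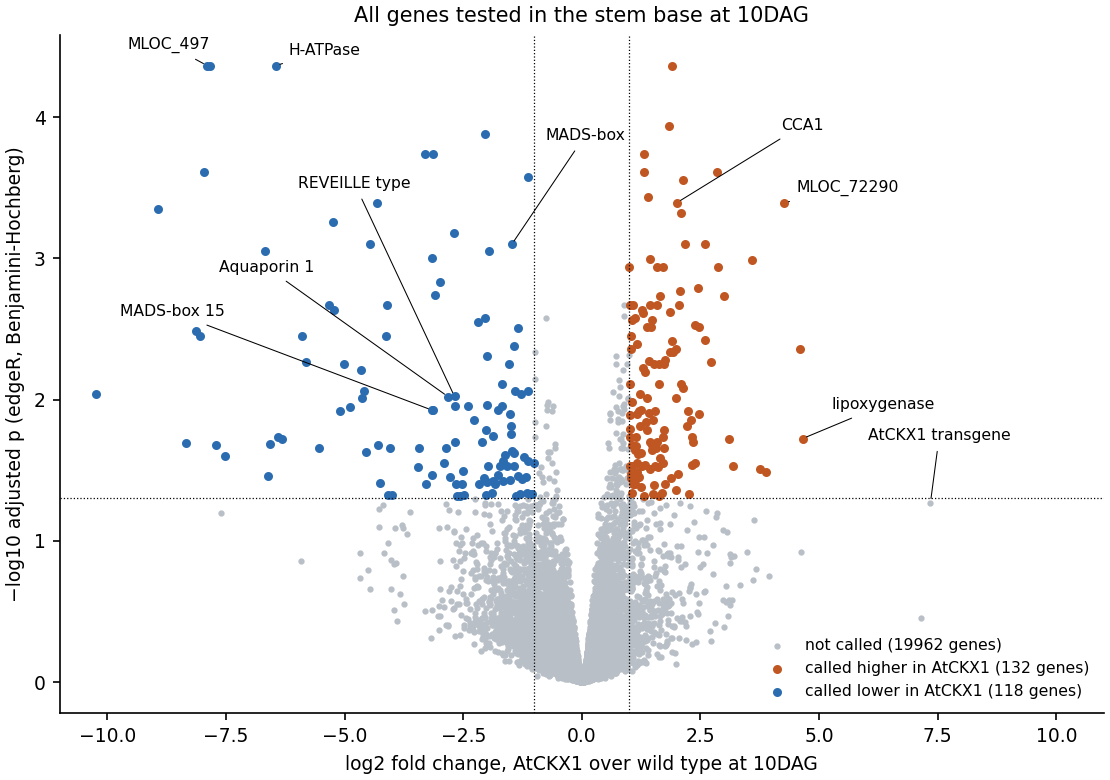
Each point is 1 of the 20212 genes tested, with the log2 fold change of AtCKX1 over WT at 10DAG on the x axis and the -log10 adjusted p on the y axis. The dotted lines mark an adjusted p of 0.05 and a 2-fold change, and the 118 genes called lower reach farther from 0 than the 132 called higher.

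A function was known for 1354 genes. Nearly all of these, 1342, came from a table of genes that the study had selected as higher in the WT at 10DAG than at 1DAG, using the same 3 WT libraries at 10DAG. That choice favours lower values in AtCKX1 at 10DAG, and also a more negative genotype effect at 10DAG than at 1DAG. The directions of these genes are therefore not independent evidence in either comparison. Of the 1334 with a test, 25 were called: 6 higher and 19 lower. Their median log2 fold change was -0.14, against -0.0097 for all genes tested. An unadjusted p under 0.05 was found in 21.0% of these genes and in 13.7% of all genes tested, against which the counts of such genes in the lists below are to be read. All 25 are described below by role. A fit of the 6 libraries at 10DAG alone called 15 of the 25. When WT replicate 2 was left out, all 25 kept their direction and 12 kept their call, and the largest shift in log2 fold change was 0.505.

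The genes of cytokinin turnover and response were examined first, because the transgene acts on this hormone. None of the 11 genes of the list was called by edgeR or DESeq2, and none had an unadjusted p under 0.05 in edgeR. Their median log2 fold change was -0.30 and became 0.02 without WT replicate 2. The gene with the largest drop among the oxidases, cytokinin oxidase/dehydrogenase 1 (MLOC_58639), had 81.0, 40.01 and 40.4 CPM in the WT and 40.8, 3.49 and 17.8 CPM in AtCKX1. The groups overlapped slightly, and the AtCKX1 libraries differed widely among themselves. The log2 fold change was -1.38 (SE 0.63, adjusted p = 0.367, edgeR), and at 1DAG it was -2.69 (adjusted p = 0.137).

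The other barley genes for cytokinin degradation showed smaller estimates. Cytokinin dehydrogenase 2 (MLOC_11021) averaged 14.8 CPM in both genotypes, and cytokinin dehydrogenase 4b (MLOC_16499) averaged 3.12 CPM in the WT and 2.53 CPM in AtCKX1. A further oxidase (MLOC_81291) stayed under 0.6 CPM in every library. Hv_CKX4, which carries its own name in the counts, was looked up after the data had been seen and averaged 63.5 ± 22.8 CPM in the WT and 49.6 ± 6.05 CPM in AtCKX1 (SD, n = 3). These endogenous oxidases thus gave no call in either direction. Hv_CKX10 and the Hv_IPT genes were likewise looked up after the data had been seen. Hv_CKX10 had at most 1 read in a library. Of the genes for synthesis, Hv_IPT2 had no read in any library, Hv_IPT5 had at most 1 read in a library and Hv_IPT7 at most 4, so no difference was detectable at this depth. The LOG-type gene MLOC_6567 had 2.39, 2.98 and 6.84 CPM in the WT and 2.22, 2.26 and 1.81 CPM in AtCKX1, a complete but narrow separation (log2 fold change -0.95, SE 0.48, adjusted p = 0.419). A pair of UDP-glycosyltransferases, enzymes that store cytokinins as glucosides, had estimates of -0.79 (MLOC_79717, adjusted p = 0.484) and -1.22 (MLOC_1013, adjusted p = 0.725). The latter became 1.08 without WT replicate 2, which alone held 2.95 CPM of it.

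The response regulators overlapped between genotypes. The A-type regulator 2 (MLOC_36886) had 44.9, 56.0 and 36.4 CPM in the WT and 54.8, 49.9 and 56.1 CPM in AtCKX1 (log2 fold change 0.23, SE 0.25). The B-type regulator 9 (MLOC_61880) averaged 27.6 ± 3.37 CPM in the WT and 29.6 ± 0.752 CPM in AtCKX1 (SD, n = 3), and the B-type regulator MLOC_23250 averaged 49.6 and 46.2 CPM. The remaining B-type gene, MLOC_12999, was under 2.1 CPM in every library, and its estimate of -1.39 became -0.20 without WT replicate 2. The list holds only genes that rose with age in the WT, so other members of the families were not assessed here.

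**Figure D2:**
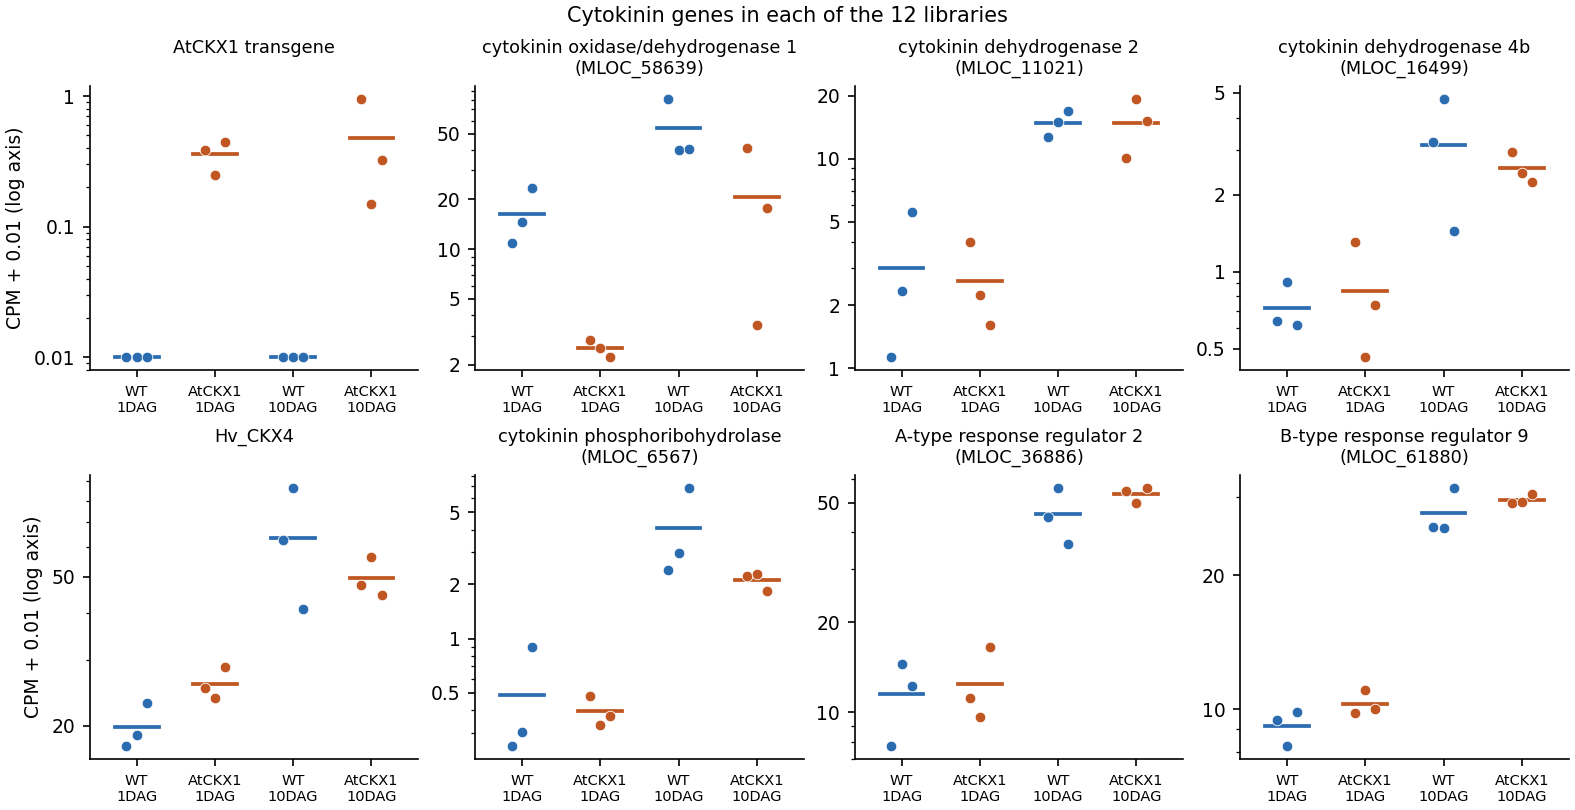
CPM plus 0.01 on a log axis for the transgene and 7 barley cytokinin genes in each of the 12 libraries, with 1 point per library and a bar at the group mean, WT in blue and AtCKX1 in orange. The transgene is at 0 in all 6 WT libraries, and the barley genes overlap or nearly overlap between genotypes at 10DAG.

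Clock genes gave one of the clearest differences. Circadian clock associated 1 (CCA1, MLOC_14118), a MYB-related transcription factor that in Arabidopsis acts in the morning part of the clock, had 115, 125 and 100.4 CPM in the WT and 451, 549 and 364 CPM in AtCKX1. The lowest AtCKX1 library stood far above the highest WT library. The log2 fold change was 2.00 (SE 0.19, adjusted p = 0.000402, edgeR), and the call held in all 24 alternative fits. At 1DAG the libraries overlapped (log2 fold change 0.22, SE 0.19, adjusted p = 0.501), and the difference between the ages passed its own test (1.78, SE 0.26, adjusted p = 0.0146).

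The REVEILLE-type gene MLOC_62877, a relative of CCA1 annotated as similar to At5g37260, moved the other way. It had 9.06, 8.88 and 11.7 CPM in the WT and 1.14, 0.639 and 2.87 CPM in AtCKX1, with no overlap (log2 fold change -2.69, SE 0.43, adjusted p = 0.00949). Without AtCKX1 replicate 1 the adjusted p was 0.0545, and with the 6 libraries at 10DAG alone it was 0.0572. The groups were also separate at 1DAG, with MLOC_62877 lower in AtCKX1 (log2 fold change -0.60, SE 0.41, adjusted p = 0.409, edgeR). The difference between the ages did not pass its test (adjusted p = 0.247). The remaining clock genes of the list were not called. A pseudo response regulator (MLOC_62596), of the family that represses CCA1 in Arabidopsis, had 202, 175 and 231 CPM in the WT and 138, 85.5 and 121 CPM in AtCKX1. Its groups did not overlap, and its log2 fold change was -0.82 (SE 0.19, adjusted p = 0.0521). Early flowering 3 (MLOC_75281), part of the evening complex in Arabidopsis, averaged 35.6 and 33.1 CPM. The photoreceptors cryptochrome 1b (MLOC_64083) and cryptochrome 2 (MLOC_8289), which set the clock by light, gave log2 fold changes of 0.07 and -0.18. The hour of harvest was not given for any library in the sources used here, and its part in these values was not tested.

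**Figure D3:**
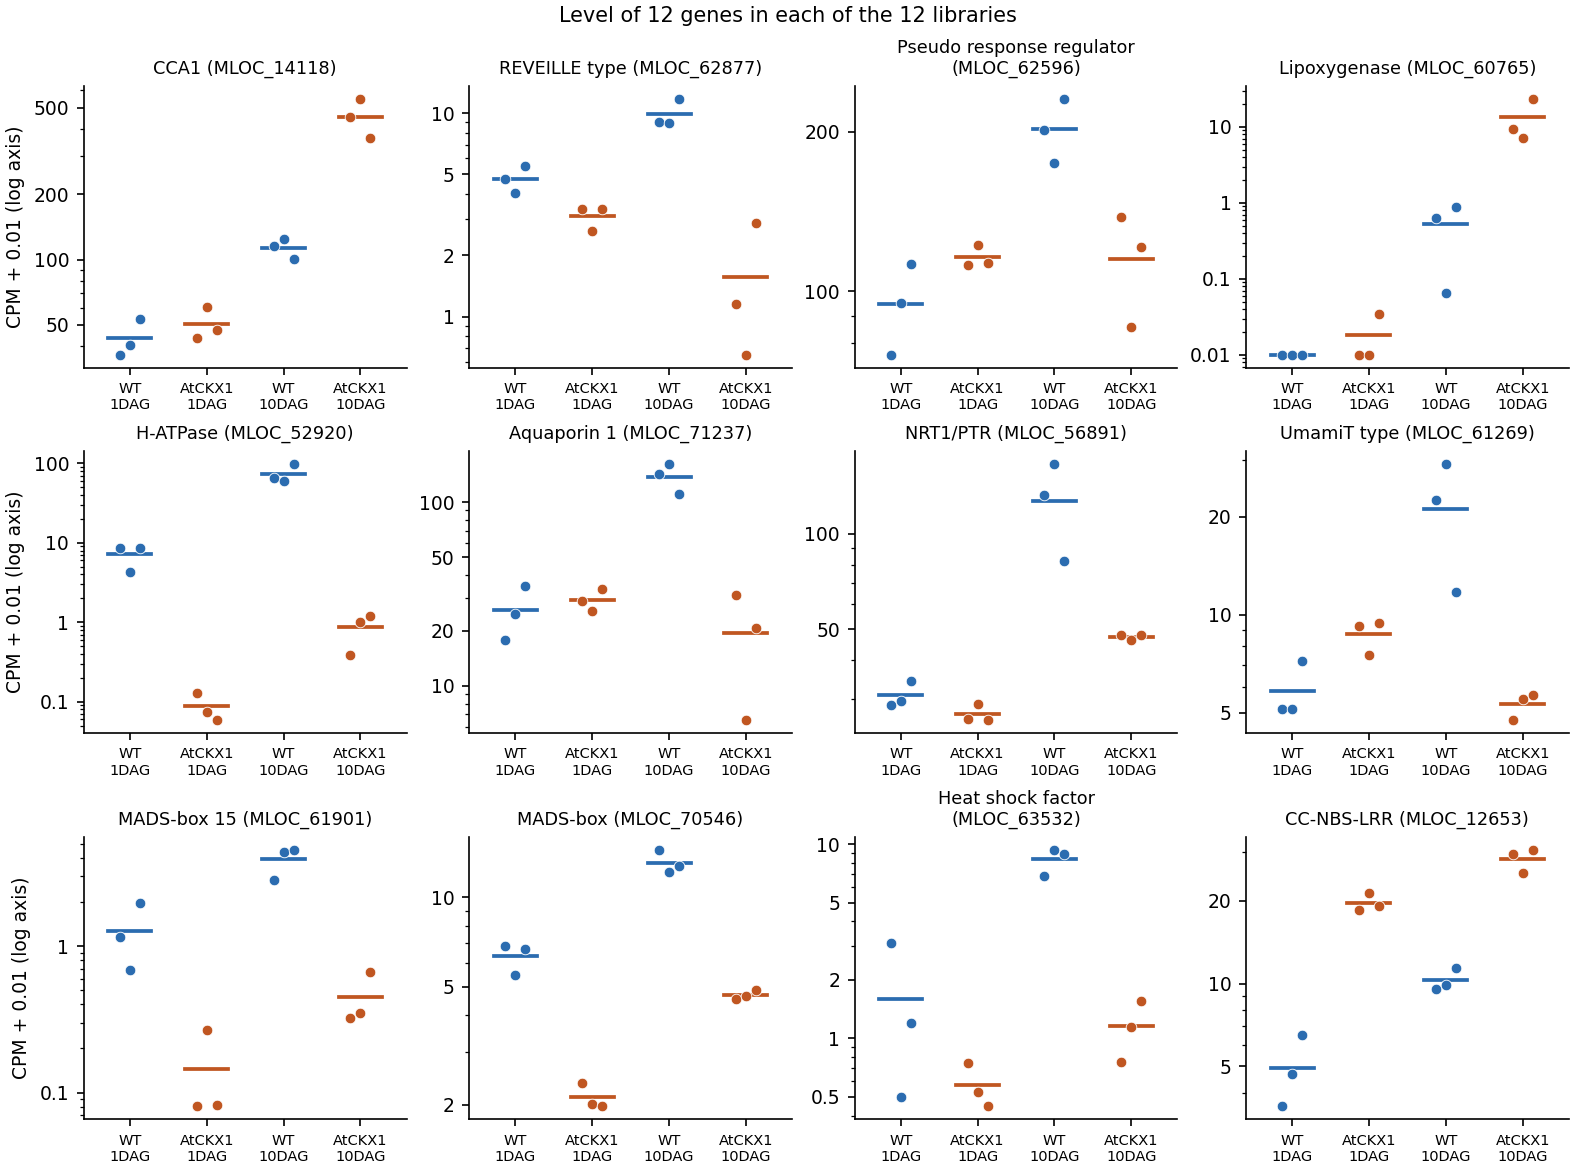
CPM plus 0.01 on a log axis for 12 genes in each of the 12 libraries, with 1 point per library and a bar at the group mean, WT in blue and AtCKX1 in orange. CCA1 separates at 10DAG only, while the H-ATPase, both MADS-box genes and the CC-NBS-LRR gene separate at both ages. The REVEILLE-type gene also separates at 1DAG, by less, and the UmamiT-type gene separates there in the opposite direction.

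Transport genes made up 7 of the 25 called genes of known function, and all 7 were lower in AtCKX1. The share called lower was 0.584% of all genes tested, and 19 of the 25 called genes of known function were lower. The number of transport genes tested in all was not counted, so the 7 are not a share of them. No member of the lists for sugar, ABC, metal and phosphate transport was called by edgeR, with 37, 19, 21 and 4 genes tested, although 7, 5, 3 and 1 had an unadjusted p under 0.05 and DESeq2 called 2 ABC and 1 metal gene lower. The largest fall was in an H-ATPase of the AHA type (MLOC_52920), a pump of the plasma membrane that expels protons and so energises uptake by other carriers. It had 66.0, 59.4 and 98.1 CPM in the WT and 0.381, 0.998 and 1.18 CPM in AtCKX1. The gene was nearly silent in every AtCKX1 library while strongly counted in every WT library. The log2 fold change was -6.45 (SE 0.44, adjusted p = 4.3e-05), and the value at 1DAG was almost the same (-6.49, SE 0.54, adjusted p = 0.000273).

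Aquaporin 1 (MLOC_71237), a water channel of the vacuolar membrane, had 142, 161 and 110 CPM in the WT and 31.3, 6.51 and 20.5 CPM in AtCKX1. All AtCKX1 libraries were well below all WT libraries (log2 fold change -2.82, SE 0.45, adjusted p = 0.00952). With the 6 libraries at 10DAG alone the adjusted p was 0.0517. At 1DAG the estimate was 0.19 (adjusted p = 0.810), although the difference between the ages itself missed the threshold (-3.01, SE 0.61, adjusted p = 0.0622). Across both genotypes at 1DAG the libraries ranged from 17.8 to 35.1 CPM. The higher level in the WT at 10DAG than at 1DAG was fixed by the choice of annotated genes and is not a result here. That choice also favours a negative difference between the ages. The other 2 aquaporins were not called: a plasma membrane type (MLOC_10855) averaged 132 and 123 CPM in WT and AtCKX1, and a nodulin-26-like type (MLOC_67894) averaged 2.71 and 4.80 CPM.

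The family of NRT1/PTR carriers moves nitrate, peptides and several hormones. Of the 38 genes tested for nitrate transport and nitrogen assimilation, none was called higher and 3 were called lower by edgeR, while DESeq2 called 2 higher and 5 lower, and the median log2 fold change was -0.40. MLOC_56891 had 132, 166 and 82.3 CPM in the WT and 47.8, 46.3 and 47.8 CPM in AtCKX1. The WT libraries spread over a wide range but all stayed above the tightly grouped AtCKX1 libraries. Its log2 fold change was -1.42 (SE 0.20, adjusted p = 0.0042), and no single library decided the call.

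The other NRT1/PTR calls were less firm. MLOC_10689 had 6.80, 12.9 and 4.72 CPM in the WT and 2.47, 2.47 and 2.45 CPM in AtCKX1 (log2 fold change -1.72, SE 0.34, adjusted p = 0.0295). MLOC_71333, named after its values were seen, had 36.6, 52.4 and 23.0 CPM in the WT and 16.9, 10.9 and 16.1 CPM in AtCKX1 (log2 fold change -1.35, SE 0.28, adjusted p = 0.035). In each, WT replicate 2 was the highest library. The calls ended when any 1 of 8 libraries was left out, with adjusted p up to 0.130 and 0.135. The summed level of the 39 genes of this list ranged from 3152 to 3617 CPM in the WT and from 2385 to 2865 CPM in AtCKX1. The estimates were not all below 0: 2 putative nitrate transporters, MLOC_58437 and MLOC_58438, chosen after their values were seen, had estimates of 2.22 and 2.86 but stood near 1 CPM in AtCKX1 and were not called by edgeR (adjusted p = 0.0833 and 0.0636). They were the members called higher by DESeq2 (adjusted p = 0.035 and 0.0158), and edgeR called them without WT replicate 1 at 1DAG. Nitrate reductase (MLOC_60358), likewise chosen afterwards and the first enzyme of nitrate assimilation, had an estimate of -1.22 (adjusted p = 0.266).

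A pair of further transporters was called lower, both named after their values were seen. MLOC_61269, of the UmamiT type that exports amino acids, had 22.6, 29.1 and 11.7 CPM in the WT and 4.73, 5.51 and 5.65 CPM in AtCKX1 (log2 fold change -1.99, SE 0.29, adjusted p = 0.00491). At 1DAG the estimate had the opposite sign (0.59, adjusted p = 0.293), and the ages differed by -2.58 (SE 0.40, adjusted p = 0.0181). The anion carrier MLOC_36462, annotated as nodulin-like, averaged 7.98 ± 2.61 CPM in the WT and 3.58 ± 0.545 CPM in AtCKX1 (SD, n = 3). Its adjusted p of 0.0459 rose to as much as 0.210 when a library was left out, and 9 libraries each ended the call.

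Among the 25 called genes of known function, the transcription factors other than the clock genes were lower in AtCKX1, as were 19 of the 25. The choice of annotated genes favours this direction, and any factors among the called genes without known function were not seen. Those described belonged to the MADS-box family, known for setting the identity of meristems and organs, and to the heat shock factors. The latter activate chaperone genes under heat and other stress. The number of genes tested in these families was not counted. MADS-box transcription factor 15 (MLOC_61901) had 2.83, 4.34 and 4.49 CPM in the WT and 0.314, 0.339 and 0.657 CPM in AtCKX1. The separation was complete (log2 fold change -3.16, SE 0.53, adjusted p = 0.0119) and equally large at 1DAG (-3.18, SE 0.58, adjusted p = 0.0375). Leaving out AtCKX1 replicate 1 raised the adjusted p at 10DAG to 0.0697, and the call also ended without replicate 2 of that group.

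A second MADS-box gene (MLOC_70546), named after its values were seen, gave a firmer call. It had 14.4, 12.1 and 12.7 CPM in the WT and 4.53, 4.65 and 4.87 CPM in AtCKX1 (log2 fold change -1.48, SE 0.16, adjusted p = 0.000796). It too was lower at 1DAG, by a similar amount (-1.58, SE 0.16, adjusted p = 0.000813), and no single library decided it.

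A heat shock transcription factor (MLOC_63532) had 6.86, 9.29 and 8.88 CPM in the WT and 0.740, 1.14 and 1.55 CPM in AtCKX1 (log2 fold change -2.87, SE 0.54, adjusted p = 0.0222). Heat shock transcription factor A3 (MLOC_69675), named after its values were seen, had 6.50, 7.07 and 7.27 CPM in the WT and 2.04, 0.958 and 3.13 CPM in AtCKX1 (log2 fold change -1.77, SE 0.37, adjusted p = 0.0343). Neither pair of groups overlapped. The first call ended without any 1 of the 6 libraries at 10DAG and the second without any 1 of 8 libraries, with adjusted p up to 0.122 and 0.138. No member of the WRKY, NAC, MYB, bHLH, homeodomain-leucine zipper or GRAS and LOB lists was called, with 31, 27, 15, 18, 8 and 6 genes tested. Of these, 8, 5, 3, 4, 1 and 1 had an unadjusted p under 0.05, and DESeq2 called 1 WRKY gene, 1 NAC gene and none of the others.

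Called genes of defence and signalling, grouped here only for description, went in both directions. The lists for jasmonic acid, signalling peptides, calcium signalling, pathogen response, proteolysis and kinases held 1 call each by edgeR. They had 10, 16, 20, 24, 51 and 153 genes tested. Of all genes with a category 1.87% were called, and of all genes tested 1.24%. A lipoxygenase (MLOC_60765), of the 13-lipoxygenase type that opens jasmonic acid synthesis, was the most raised gene of known function. It had 0.622, 0.0546 and 0.883 CPM in the WT and 9.45, 7.08 and 23.4 CPM in AtCKX1. The gene was barely counted in the WT and clearly present in all AtCKX1 libraries (log2 fold change 4.65, SE 0.78, adjusted p = 0.0189). At 1DAG a single AtCKX1 library held any of it, at 0.0243 CPM. The call ended without WT replicate 1 (adjusted p = 0.0799) and without each of AtCKX1 replicates 1 and 3 at 10DAG and AtCKX1 replicate 3 at 1DAG. The other 9 jasmonic acid genes were not called. Among them, picked after their values were seen, were a further lipoxygenase (MLOC_67243) with an estimate of -1.63 (adjusted p = 0.101) and the 12-oxophytodienoate reductase MLOC_69262, a later enzyme of the pathway, with -0.26.

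A pair of genes outside all lists was also higher in AtCKX1. A disease resistance protein of the CC-NBS-LRR class (MLOC_12653), a family of intracellular immune receptors, had 9.55, 9.89 and 11.4 CPM in the WT and 29.7, 25.2 and 30.6 CPM in AtCKX1 (log2 fold change 1.47, SE 0.19, adjusted p = 0.00271). A leucine-rich receptor-like protein kinase (MLOC_3707), of a family of cell surface receptors, had 4.80, 5.84 and 5.32 CPM in the WT and 21.2, 20.4 and 19.0 CPM in AtCKX1 (log2 fold change 1.93, SE 0.27, adjusted p = 0.0046). Both differences were tight within groups and did not depend on any single library. Both were also present at 1DAG, with log2 fold changes of 2.00 (adjusted p = 0.000776) and 2.33 (adjusted p = 0.00314).

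A kinase of the wall-associated type (MLOC_48019), whose relatives bind cell wall pectin, was the only called member among the 153 tested of the kinase list, which does not hold MLOC_3707. It had 21.5, 12.1 and 19.6 CPM in the WT and 48.6, 67.1 and 45.5 CPM in AtCKX1 (log2 fold change 1.60, SE 0.32, adjusted p = 0.0299), and 7 libraries each ended the call when left out, with adjusted p up to 0.119. The median of the kinase list was 0.08, and DESeq2 called 5 of its members.

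On the lower side, MLOC_73481 was described as a leucine-rich repeat receptor-like kinase and categorised as a polygalacturonase inhibitor, a protein type that blocks fungal pectin-degrading enzymes. It had 17.9, 26.2 and 10.8 CPM in the WT and 3.61, 5.19 and 4.65 CPM in AtCKX1. The groups did not overlap (log2 fold change -2.03, SE 0.36, adjusted p = 0.0164), and the ages differed by -3.11 (SE 0.55, adjusted p = 0.0311), since at 1DAG the estimate was 1.08. The adjusted p at 10DAG rose to 0.0965 without AtCKX1 replicate 1, and the call also ended without AtCKX1 replicate 3 and without WT replicates 1 and 2. A precursor of PIP/PIPL peptides (MLOC_80337), secreted signals linked to immunity in Arabidopsis, had 1.54, 1.15 and 0.858 CPM in the WT and 0.0224, 0.0599 and 0.131 CPM in AtCKX1 (log2 fold change -4.05, SE 0.77, adjusted p = 0.0222). It lost its call without any 1 of 4 libraries (adjusted p up to 0.117).

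The remaining lower genes of this kind were weakly counted. A calmodulin-like calcium sensor (MLOC_74162) averaged 1.498 ± 0.963 CPM in the WT and 0.214 ± 0.0477 CPM in AtCKX1 (SD, n = 3, adjusted p = 0.035, edgeR). An aspartyl protease (MLOC_7490) averaged 1.84 and 0.406 CPM (adjusted p = 0.0396), a ubiquitin ligase of the ATL subclass (MLOC_2019) 2.61 and 0.638 CPM (adjusted p = 0.0472), and a DUF538 protein of unknown function (MLOC_38106) 1.81 and 0.373 CPM (adjusted p = 0.0138). MLOC_2019 was named after its values were seen. Each lost its call when any 1 of 4 to 9 libraries was left out, with adjusted p up to 0.137, 0.150, 0.186 and 0.0858.

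Genes of photosynthesis were taken as a marker of green shoot tissue in the segment, but only a partial one. The list holds only members that rose with age in the WT. It includes carbonic anhydrases, a transketolase and an alternative oxidase, and its members were not shown here to be specific to green tissue. Of 12 genes, 1 was called higher and 1 lower. The higher one, for the Rubisco assembly factor RbcX (MLOC_68131), had 7.799, 10.3 and 7.72 CPM in the WT and 24.01, 16.1 and 15.7 CPM in AtCKX1 (log2 fold change 1.11, SE 0.21, adjusted p = 0.0228). The lower one, Ferredoxin-6 (MLOC_69236), an electron carrier, had 2.90, 5.27 and 2.95 CPM in the WT and 0.740, 1.16 and 0.920 CPM in AtCKX1 (log2 fold change -1.97, SE 0.39, adjusted p = 0.0293). Neither group pair overlapped, but 3 and 6 libraries each ended the calls, with adjusted p up to 0.115 and 0.151.

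The summed level of the 12 photosynthesis genes was higher in AtCKX1, at 1219 to 1308 CPM against 881 to 1055 CPM in the WT. Most of this sum was photosystem II subunit PsbR (MLOC_37052), picked after its values were seen, with 586, 511 and 618 CPM in the WT and 927, 960 and 829 CPM in AtCKX1 (log2 fold change 0.66, SE 0.40, adjusted p = 0.510). Its groups did not overlap, but the gene did not pass the test in any fit. The median of the list was -0.10, and the part of green tissue in the other differences was not tested.

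Several other lists gave no call but had medians below 0, which the choice of the annotated genes favours. Estimates below 0 were found in 831 of the 1334 genes with a category and in 10447 of all 20212 genes tested. The counts of such estimates in the lists are to be read against these. All 5 expansins, proteins that loosen cell walls, had estimates below 0, with a median log2 fold change of -0.86 that became -0.80 without WT replicate 2. They ranged from -1.38 to -0.75. Expansin-like 3 (MLOC_53864), picked after its values were seen, had 52.6, 69.7 and 66.6 CPM in the WT and 30.3, 35.7 and 37.9 CPM in AtCKX1. Its groups did not overlap and its adjusted p was 0.0301, but its log2 fold change of -0.86 (SE 0.17) fell short of 2-fold, and without WT replicate 2 the adjusted p was 0.132. In the list, 3 genes had an unadjusted p under 0.05, and DESeq2 called 2. At 1DAG the median of the expansins was 0.10.

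Of 21 glutathione S-transferases, enzymes that couple glutathione to toxic compounds, 18 had estimates below 0 and none was called by edgeR, while 9 had an unadjusted p under 0.05 and DESeq2 called 3. The median was -0.74, and -0.50 without WT replicate 2. The wider list of reactive oxygen and redox genes, which includes 20 of these, had a median of -0.57 over 33 genes, with 12 genes at an unadjusted p under 0.05, no call by edgeR and 3 by DESeq2. At 1DAG the medians were -0.61 and -0.43. The summed level of the redox list ranged from 6373 to 7904 CPM in the WT and from 4806 to 6409 CPM in AtCKX1, so the groups overlapped narrowly.

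Among hormones other than cytokinin, the gibberellin list had a median of -0.59 over 9 genes, and -0.35 without WT replicate 2. The genes named from it were picked after their values were seen. A gibberellin 20 oxidase (MLOC_16059), an enzyme late in the synthesis of active gibberellin, had 6.07, 8.602 and 3.23 CPM in the WT and 2.36, 2.18 and 2.39 CPM in AtCKX1 (log2 fold change -1.37, SE 0.32, adjusted p = 0.0576). A gene categorised as the gibberellin-hydrating enzyme GAS2 (MLOC_36663) had 33.4, 38.0 and 35.7 CPM in the WT and 19.8, 25.6 and 25.1 CPM in AtCKX1, also without overlap (log2 fold change -0.60, SE 0.14, adjusted p = 0.0538). A second 20 oxidase (MLOC_66389) was under 0.5 CPM in all libraries at 10DAG. The gibberellin receptor GID1 (MLOC_6074) averaged 175 and 198 CPM. The auxin list had a median of -0.50 over 10 genes, which became -0.18 without WT replicate 2, and the ethylene list a median of -0.29 over 13 genes, which became 0.01. None of the genes of these 3 lists was called, nor any of the 6 abscisic acid genes or the 6 strigolactone and salicylic acid genes. At an unadjusted p under 0.05 stood 3 gibberellin, 2 auxin and no ethylene genes, and 1 gene of each of the latter lists. DESeq2 called 1 gibberellin gene and 1 strigolactone or salicylic acid gene.

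**Figure D4:**
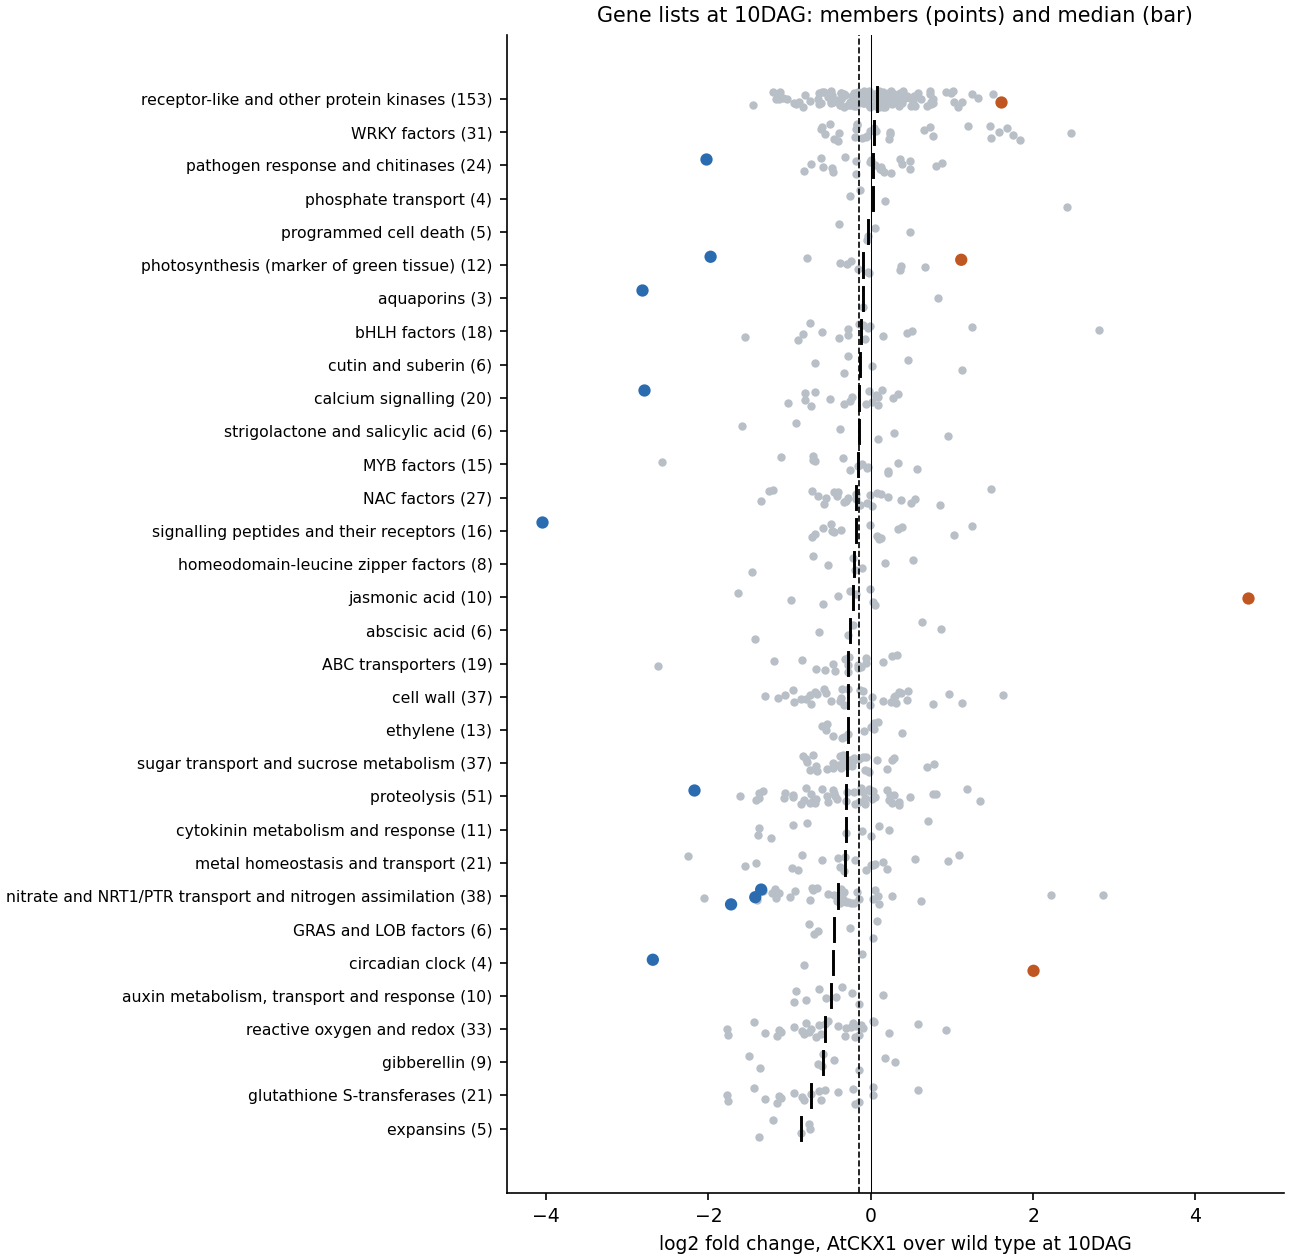
Log2 fold change of AtCKX1 over WT at 10DAG for every tested gene of the 32 lists, with 1 point per gene, the number tested in brackets and a black bar at the median. Called genes are orange (higher) or blue (lower), the dashed line marks the median of -0.14 of all genes with a category, and most lists lie to its left with few or no calls.

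The 10 genes for which the study had designed primers were compared next. None of the 10 was called by edgeR or DESeq2, and 1 had an unadjusted p under 0.05 (edgeR). The LBD gene CRL1.1 (MLOC_10784), whose rice orthologue is needed to start crown roots, had 6.25, 8.47 and 5.65 CPM in the WT and 4.04, 5.49 and 5.05 CPM in AtCKX1. The groups separated by a narrow margin (log2 fold change -0.48, SE 0.20, adjusted p = 0.308), and the estimate was -0.28 without WT replicate 2. The IAA-amino acid hydrolase MLOC_70768, which frees auxin from its conjugates, behaved alike (log2 fold change -0.36, SE 0.17, adjusted p = 0.399). The GRAS factor SCR-like1 (MLOC_6971) averaged 187 ± 35.6 CPM in the WT and 196 ± 3.18 CPM in AtCKX1 (SD, n = 3). The other primer genes, among them an argonaute (MLOC_4898), auxin response factor 20 (MLOC_73144) and a histone deacetylase (MLOC_71091), lay between -0.18 and 0.16.

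Most called genes, 225 of the 250, had no function in the sources used here, and they included the largest falls. Among those higher, MLOC_41838 had 0.132, 0.164 and 0.126 CPM in the WT and 1.84, 5.83 and 2.68 CPM in AtCKX1 (log2 fold change 4.60, SE 0.65, adjusted p = 0.0044). MLOC_72290 had 1.30, 0.956 and 0.807 CPM in the WT and 12.9, 29.5 and 17.3 CPM in AtCKX1 (log2 fold change 4.27, SE 0.41, adjusted p = 0.000402). Neither was raised at 1DAG, where the estimates were -0.76 and -0.71, and in both the difference between the ages passed its test. At 1DAG the WT level of MLOC_72290 was 8.84, 13.8 and 19.6 CPM, so the gene was low in the WT only at the later age.

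Among those lower, MLOC_27023 and MLOC_35134 had no read in any AtCKX1 library at 10DAG. The WT libraries held 2.92, 2.70 and 4.79 CPM of the first and 1.71, 0.901 and 1.59 CPM of the second. Against a floor of 3 reads over the AtCKX1 group, they were at least 152-fold and at least 64.0-fold lower. Altogether 6 genes were seen in the WT only, with at least 50 reads in each WT library and at most 5 in each AtCKX1 library at 10DAG: MLOC_26429, MLOC_27023, MLOC_28102, MLOC_31095, MLOC_497 and MLOC_54756. Other than MLOC_27023 they were named after their values were seen. In 5 of the 6 the same limits were met at 1DAG. MLOC_54756 had 17 to 19 reads in the AtCKX1 libraries at that age, against 710 to 1176 in the WT. No gene met these limits in the opposite direction.

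The genotype effect at 10DAG was then set beside that at 1DAG, which was measured on other libraries but in the same fit. At 1DAG 102 genes were called (0.505%), 33 higher (0.163%) and 69 lower (0.341%). The number was 250 without WT replicate 3 at 1DAG and 51 to 55 without each AtCKX1 library at that age. Called at both ages were 51 genes, or 20.4% of those at 10DAG and 50% of those at 1DAG. All 51 had the same direction, with 44 lower at both ages and 7 higher at both. The strong losses were mostly of this kind: of the 37 genes lower by more than 16-fold at 10DAG, 32 were also called at 1DAG. The H-ATPase, both MADS-box genes, the CC-NBS-LRR gene and the receptor-like kinase MLOC_3707 were the 5 genes with a category called at both ages.

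Other differences at 10DAG were not the same at 1DAG by a direct test. The genotype effect differed between the ages in 98 genes (0.485% of those tested), with 82 more positive at 10DAG (0.406%) and 16 more negative (0.0792%). Of these, 67 were among the 250 called at 10DAG. Of these 67, 56 were higher and 11 lower in AtCKX1 at 10DAG. The 98 became 40, 60 and 54 without WT replicates 1, 2 and 3 at 10DAG, 46 without AtCKX1 replicate 3 at 10DAG, and 62, 58 and 34 without AtCKX1 replicates 1, 2 and 3 at 1DAG. The genes with known function among them were CCA1 (MLOC_14118), MLOC_73481 and MLOC_61269. The choice of annotated genes as higher in the WT at 10DAG than at 1DAG favours negative differences, as found in MLOC_73481 and MLOC_61269. For the remaining called genes no difference between the ages was shown, which does not make the effects equal.

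**Figure D5:**
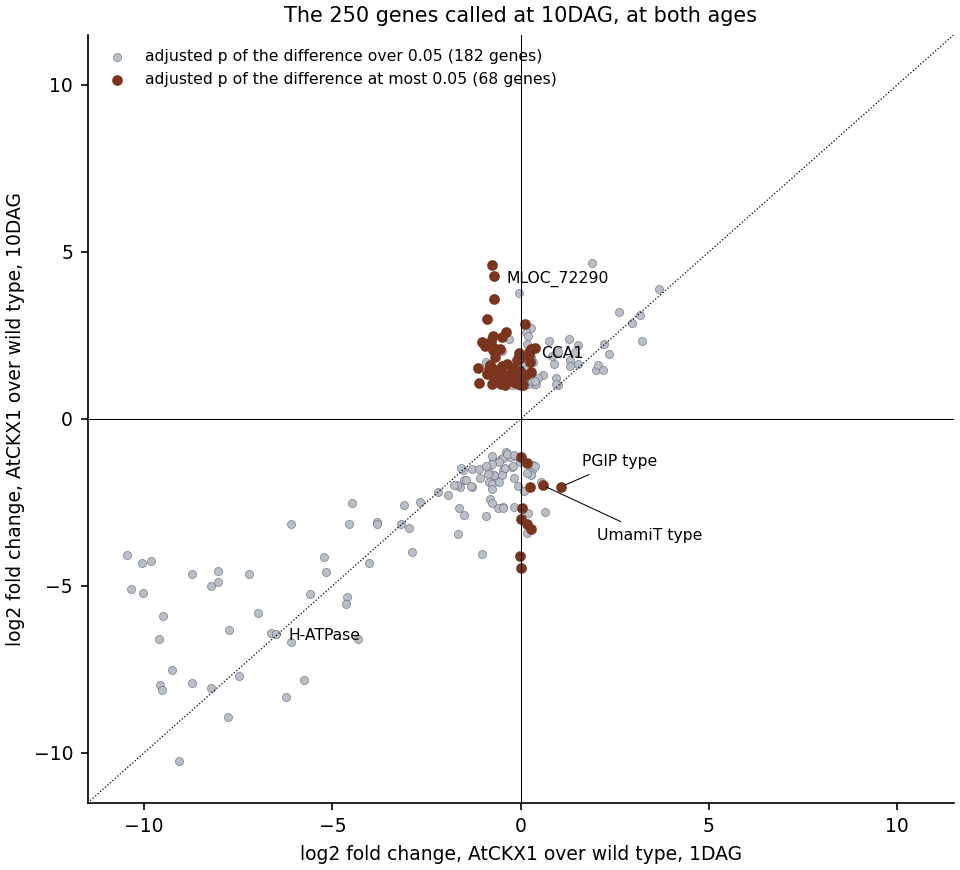
Log2 fold change of AtCKX1 over WT at 1DAG on the x axis and at 10DAG on the y axis for the 250 genes called at 10DAG, with a dotted line of equal change. Strongly lower genes lie in the lower left at both ages, whereas the dark points, 68 genes with an adjusted p of the difference between the ages of at most 0.05, lie nearer 0 at 1DAG and mostly above 0 at 10DAG.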

How the data were processed

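The deposited files held counts of reads per gene for 12 stem base libraries. According to the study's methods and the submitters' processing notes, the authors mapped the reads to the barley cv. Morex genome (IBSC_v1) with TopHat and counted them by strand with HTSeq 0.6.0. Rows for unassigned reads were removed (22.1% to 24.4% no feature, 7.02% to 10.3% not unique). Genes were filtered with filterByExpr, scaled by TMM and fitted with edgeR 4.0.16 (R 4.3.3; robust quasi-likelihood F test, 4 group means over 12 libraries), with p-values adjusted by Benjamini-Hochberg across the 20212 genes. A gene was called at an adjusted p of at most 0.05 and an absolute log2 fold change of at least 1. Standard errors (SE) were obtained from the estimate and its F statistic. The study used DESeq2, which was an alternative here (DESeq2 1.42.0), beside other scalings, filters, thresholds, a replicate block and fits without each library.

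Gene functions came from the readable part of the study's supplementary table and its primer table, of which only descriptions were used. None of the 26073 identifiers matched the RefSeq gene table, so no positions or sequences are given. Members, lists and limits were chosen with earlier results of these data known. Named were the transgene, the cytokinin list, the primer genes, the 10 called genes of known function with the largest change in each direction without overlap between libraries, the 2 such genes without known function in each direction, and the 2 most changed called members of each list in each direction (only 6 higher genes of known function were called). Genes added after their values were seen are marked as such, except the further members of the clock and aquaporin lists, which are given whole. P-values rest on a spread between replicates estimated over all 12 libraries, with 3 a group, and moderated across genes. They do not measure the spread of the 6 libraries at 10DAG alone. An exact permutation test of 3 against 3 cannot go below 0.1 (two-sided). Tested on simulated data for the 10DAG comparison (20212 genes, 200 changed), the fit recovered 77% of changes of log2 2 and 69% of log2 1.5, with 5 false calls. Apart from the planted changes, the simulation gave each gene the same mean at both ages and held no outlying library. These rates may therefore not hold for the real libraries.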

Additional observations from a re-analysis of the deposited data

Results flagged for a closer look

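The genotype effect differed between the ages in 5 of the genes named above, each by the test of the difference itself (edgeR quasi-likelihood test, Benjamini-Hochberg adjusted over all genes tested). In CCA1 (MLOC_14118) the log2 fold change of AtCKX1 over WT was higher at 10DAG than at 1DAG by 1.78 (SE 0.26, adjusted p = 0.0146). In MLOC_72290 and MLOC_41838, both without known function, it was higher at 10DAG by 4.98 (SE 0.53, adjusted p = 0.00245) and 5.36 (SE 0.85, adjusted p = 0.0197). In the polygalacturonase-inhibitor type gene MLOC_73481 the difference was -3.11 (SE 0.55, adjusted p = 0.0311), and in the UmamiT type transporter MLOC_61269 it was -2.58 (SE 0.40, adjusted p = 0.0181). Negative differences are favoured by the choice of the annotated genes, which were higher in the WT at 10DAG than at 1DAG. In each of the 5, the 3 AtCKX1 libraries lay on 1 side of the 3 WT libraries at 10DAG. The same was true of all 250 called genes and was part of the rule for naming genes, so it adds no support. The transgene AT2G41510 had few reads, and the AtCKX1 library with the most at 10DAG held 42 against 7 and 12 in the others.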

How the results depend on the processing

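The counts of calls at 10DAG depended on the settings more than the directions did. With DESeq2, 243 genes were higher and 284 lower (234 and 279 with its prior on fold changes), and 248 of the 250 calls were among them. Without the fold limit 216 were higher, and with glmTreat against a 2-fold change 18 were higher and 30 lower. With at least 10 counts required in every library 64 were lower, since genes near 0 in AtCKX1 are then not tested. Leaving out 1 library gave 70 to 221 higher and 45 to 285 lower genes, 51 to 250 calls at 1DAG and 34 to 123 for the difference between the ages. At 1DAG DESeq2 called 721 (673 with the prior), the count minimum left 25 and glmTreat 48. For the difference, DESeq2 called 289 (283) and glmTreat 9. In all alternatives other than glmTreat and the count minimum, 93 of the 250 genes (54 higher, 39 lower) stayed called, and 97 stayed called without each 10DAG library in turn. No called gene among the 86 named genes with a test changed sign in any alternative. The median of all genes moved by under 0.1 on the log2 scale with every scaling. A fit of the 10DAG libraries alone gives no value at 1DAG.

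No deviation shared by replicate number was seen at 10DAG. The correlations of deviations between same-numbered WT and AtCKX1 libraries were -0.0081, -0.19 and -0.19, and 0 of 3 WT libraries was closest to its own number. With 3 libraries a group, these values cannot show whether same-numbered libraries were grown or harvested together. With the replicate block 75 genes were lower, 177 were called in all at 10DAG, 63 at 1DAG and 47 for the difference.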
